A study of Homo sapiens with 8 samples.

Results

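Kinesins are motor proteins that walk along microtubules, and centromere proteins (CENP) build the site on each chromosome to which spindle microtubules attach. The genes described here were chosen by symbol alone, as KIF or KIFC followed by a digit or CENP followed by 1 or 2 capital letters, without antisense or pseudogene names and with any count above 0. They number 62 of 34618 genes in the deposited table, 41 kinesins and 21 centromere proteins. KIF2B also matched by name but had no count in any library. Their RNA was sequenced, stranded and selected for poly(A), from 8 libraries labelled as THP1, an AML cell line of monocytic origin. Of these, 4 libraries came from cells engineered with the iRxI/AxA mutant, named RRM2 OE elsewhere in the labels (RRM2_OE here), and 4 from cells engineered with an empty vector (MOCK). Both groups were grown with doxycycline at 2 µg/mL, in medium with Tet-system approved serum, so the agent itself did not differ between them. The labels name neither clones nor separate cultures, and p-values therefore measure the spread between these libraries, which may be technical.

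Library totals lay between 10994255 and 11686152 counts. RRM2 codes for the small subunit of ribonucleotide reductase. It stood at 215 to 236 CPM (counts scaled to TMM-adjusted library size) in RRM2_OE and at 116 to 128 CPM in MOCK. That is the direction the RRM2 OE label gives, but gene counts show neither the iRxI/AxA mutant nor the cell line. CDKN2A, commonly described as lost in THP1 cells, was at 48.9 to 55.5 CPM in RRM2_OE and 44.6 to 56.3 CPM in MOCK, which goes against that line. Of 8 monocyte markers 5 were higher in RRM2_OE and 0 lower, with summed levels of 2477 to 2674 CPM in RRM2_OE and 1941 to 2130 CPM in MOCK. Summed T and NK markers stood at 283 to 292 CPM in RRM2_OE and 193 to 206 CPM in MOCK (5 of 6 higher), and summed B cell markers at 59.2 to 66.1 CPM in RRM2_OE and 150 to 167 CPM in MOCK (1 of 4 higher, 1 lower). Erythroid and megakaryocyte markers, 2 of 8 higher and 3 lower, summed to 576 to 611 CPM in RRM2_OE and 583 to 614 CPM in MOCK. No marker was at 0 in all libraries, but MS4A1, CD3E and CD68 had only 4, 39 and 64 counts over all libraries and were not tested. CD8A, among the higher T and NK markers, averaged 0.334 CPM in MOCK, near the floor. The part of these marker differences in the results below was not tested. In both groups, replicates 1 and 3 stood apart from replicates 2 and 4 across many genes, and results are given with that split where it matters. Chi-square per degree of freedom between 2 libraries is near 1 for counting noise alone. In RRM2_OE it was 1.49 for replicates 1 and 3 and 1.47 for replicates 2 and 4, and in MOCK 2.90 and 2.38. Odd with even replicates gave at least 7.96 in RRM2_OE and at least 6.18 in MOCK. Whether replicates of like parity are repeats of the same culture was not tested.

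A kinetochore is assembled in layers. Nucleosomes with the histone H3 variant CENPA mark the centromere, a network of inner kinetochore subunits (the constitutive centromere-associated network, CCAN) sits on them throughout the cell cycle, and a fibrous corona with CENPE and CENPF forms on the outside in mitosis. Mitotic kinesins build the spindle, move chromosomes and complete cell division, and many are made mainly in G2 and mitosis. Transport kinesins carry vesicles, organelles and RNA in cells at any stage. In bulk RNA, fewer cells at a stage and less RNA per cell cannot be told apart.

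Of the 62 genes, 53 passed the filter on low counts and were tested. The other 9 (KIF1A, KIF5A, KIF5C, KIF6, KIF12, KIF17, KIF19, KIF21A and KIF25) had between 1 and 72 counts over all 8 libraries together and were not tested. Several of these, KIF1A and KIF5A among them, are best known from neurons. Per kilobase of exon, the levels spanned a wide range. KIF5B, the ubiquitous heavy chain of kinesin-1, was highest, at 35.8 ± 3.71 RPKM in RRM2_OE and 34.0 ± 2.26 RPKM in MOCK (the authors' length-scaled and depth-scaled read values, mean ± SD, n = 4 each). KIF2A, a kinesin-13 that removes tubulin from microtubule ends, followed at 25.0 RPKM in RRM2_OE and 26.3 RPKM in MOCK. It overlaps IPO11 on its own strand, and reads in such an overlap may be lost or shared. CENPB, which binds a short motif in centromeric repeats, averaged 23.0 RPKM in RRM2_OE and 20.7 RPKM in MOCK, and CENPA averaged 4.41 RPKM in RRM2_OE and 5.21 RPKM in MOCK. The median member level in MOCK was 7.70 RPKM for the 15 CCAN genes, 7.19 RPKM for the 13 mitotic kinesins and 2.88 RPKM for the 17 transport kinesins.

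**Figure D1:**
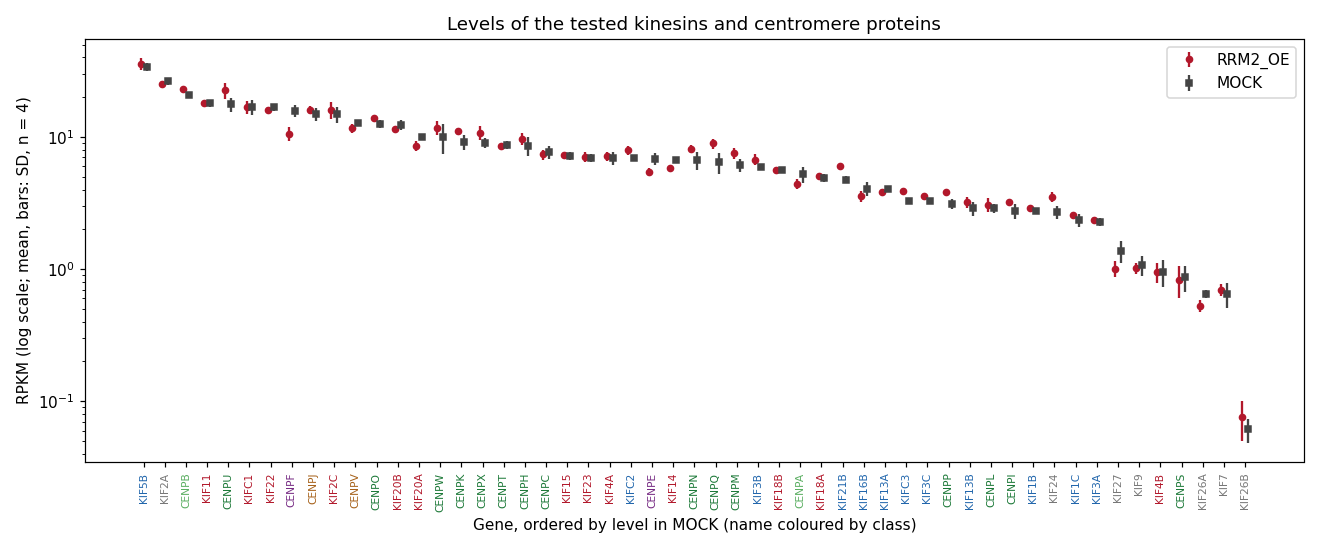
Level of each of the 53 tested genes in RPKM on a log axis (mean, bars SD, 4 RRM2_OE and 4 MOCK libraries), ordered by the level in MOCK. KIF5B stands highest, near 34.0 RPKM in MOCK, and KIF26B lowest, at 0.0756 RPKM in RRM2_OE and 0.0613 RPKM in MOCK.

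Promoter sequences of these genes were searched for a pair of motifs known from cell cycle genes. Many G2 and mitotic genes carry a cell cycle genes homology region (CHR, searched here as TTTGAA), which the LIN54 subunit of the MuvB complex binds, and a CCAAT box, which NF-Y binds. RefSeq promoters (GRCh38.p14, 250 bases before to 50 after the start) were matched for 50 of the 62 genes, and both motifs were searched on both strands, with matches counted also where they overlap. TTTGAA was found in 10 of 13 mitotic kinesin promoters and in 1 of 12 of the transport kinesins, against 15.4% of all 27305 promoters in the table. For CCAAT the counts were 11 of 13 mitotic and 3 of 12 transport kinesins, against 35.7% of all promoters. Of the 12 CCAN promoters, 3 held TTTGAA and 7 held CCAAT. These are matches of letters, not binding sites.

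The 120 bases before the start are given for 4 mitotic kinesins that hold both motifs there, so that their close spacing can be seen. Capitals mark TTTGAA and CCAAT or, on the other strand, TTCAAA and ATTGG.
KIF11, chr10:92593010-92593129, plus strand: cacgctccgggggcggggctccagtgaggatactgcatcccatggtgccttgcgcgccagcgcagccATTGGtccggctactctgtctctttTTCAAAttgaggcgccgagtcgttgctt
KIF4A, chrX:70289984-70290103, plus strand: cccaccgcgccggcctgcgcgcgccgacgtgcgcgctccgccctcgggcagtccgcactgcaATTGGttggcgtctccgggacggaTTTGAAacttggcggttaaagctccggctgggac
KIF18A, chr11:28108157-28108276, minus strand: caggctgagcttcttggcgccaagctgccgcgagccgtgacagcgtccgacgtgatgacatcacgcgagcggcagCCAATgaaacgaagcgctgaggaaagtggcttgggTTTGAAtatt
KIF23, chr15:69414229-69414348, plus strand: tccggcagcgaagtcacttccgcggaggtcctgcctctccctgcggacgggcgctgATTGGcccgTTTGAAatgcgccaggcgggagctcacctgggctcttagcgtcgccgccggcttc
The 4 genes that were lower in RRM2_OE are shown for comparison. None of them holds TTTGAA in these bases, but CENPF and KIF14 hold it within 50 bases after the start. The 4 mitotic kinesins above were chosen for holding both motifs, so the 2 sets do not make a fair contrast. In the whole window searched, TTTGAA was in 2 of 4 lower, 0 of 5 higher and 14 of 34 uncalled members with a promoter.
CENPF, chr1:214603075-214603194, plus strand: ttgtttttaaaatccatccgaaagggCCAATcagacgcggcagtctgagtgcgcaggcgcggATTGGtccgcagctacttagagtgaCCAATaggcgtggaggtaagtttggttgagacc
CENPE, chr4:103198344-103198463, minus strand: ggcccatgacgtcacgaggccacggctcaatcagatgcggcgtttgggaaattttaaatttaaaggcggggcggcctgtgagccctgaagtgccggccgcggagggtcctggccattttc
KIF14, chr1:200620752-200620871, minus strand: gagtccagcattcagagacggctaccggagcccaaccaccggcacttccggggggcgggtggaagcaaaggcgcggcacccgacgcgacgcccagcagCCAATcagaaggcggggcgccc
KIF20A, chr5:138178992-138179111, plus strand: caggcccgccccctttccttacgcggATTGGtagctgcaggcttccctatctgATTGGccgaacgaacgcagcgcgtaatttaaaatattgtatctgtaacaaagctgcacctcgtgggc
Then come 3 of the CCAN genes that were higher in RRM2_OE, each with at least 1 CCAAT box and no TTTGAA in the whole window searched.
CENPU, chr4:184734097-184734216, minus strand: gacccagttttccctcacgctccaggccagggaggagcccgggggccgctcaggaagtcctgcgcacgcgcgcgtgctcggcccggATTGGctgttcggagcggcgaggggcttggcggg
CENPQ, chr6:49463250-49463369, plus strand: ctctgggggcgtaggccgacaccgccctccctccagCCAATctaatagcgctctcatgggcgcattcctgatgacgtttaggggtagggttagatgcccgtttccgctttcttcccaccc
CENPK, chr5:65563169-65563288, minus strand: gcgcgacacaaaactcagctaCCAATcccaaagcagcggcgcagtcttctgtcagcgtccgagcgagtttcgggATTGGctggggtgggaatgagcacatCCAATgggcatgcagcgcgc

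Between RRM2_OE and MOCK, 4 of 15 inner kinetochore genes and 3 kinesins were higher, and both corona genes and 2 of 13 mitotic kinesins were lower. Of the 53 tested genes, 7 were higher (13.2%, against 7.41% of all genes tested) and 4 lower (7.55%, against 5.42%), by edgeR's quasi-likelihood test at a Benjamini-Hochberg adjusted p below 0.05 over all 15286 genes. The median log2 fold change was 0.06, beside -0.00 over all genes, and the values ran from -0.59 to 0.46. The groups did not overlap for 16 of the 53 (30.2%, against 19.4% of all genes). The summed level of all 62 genes was 2083 to 2253 CPM in RRM2_OE and 2066 to 2287 CPM in MOCK, so the ranges overlapped. In a fit blocked on replicate number, 14 of the 53 were higher (26.4%, against 15.1% of all genes) and 7 lower (13.2%, against 14.0%).

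**Figure D2:**
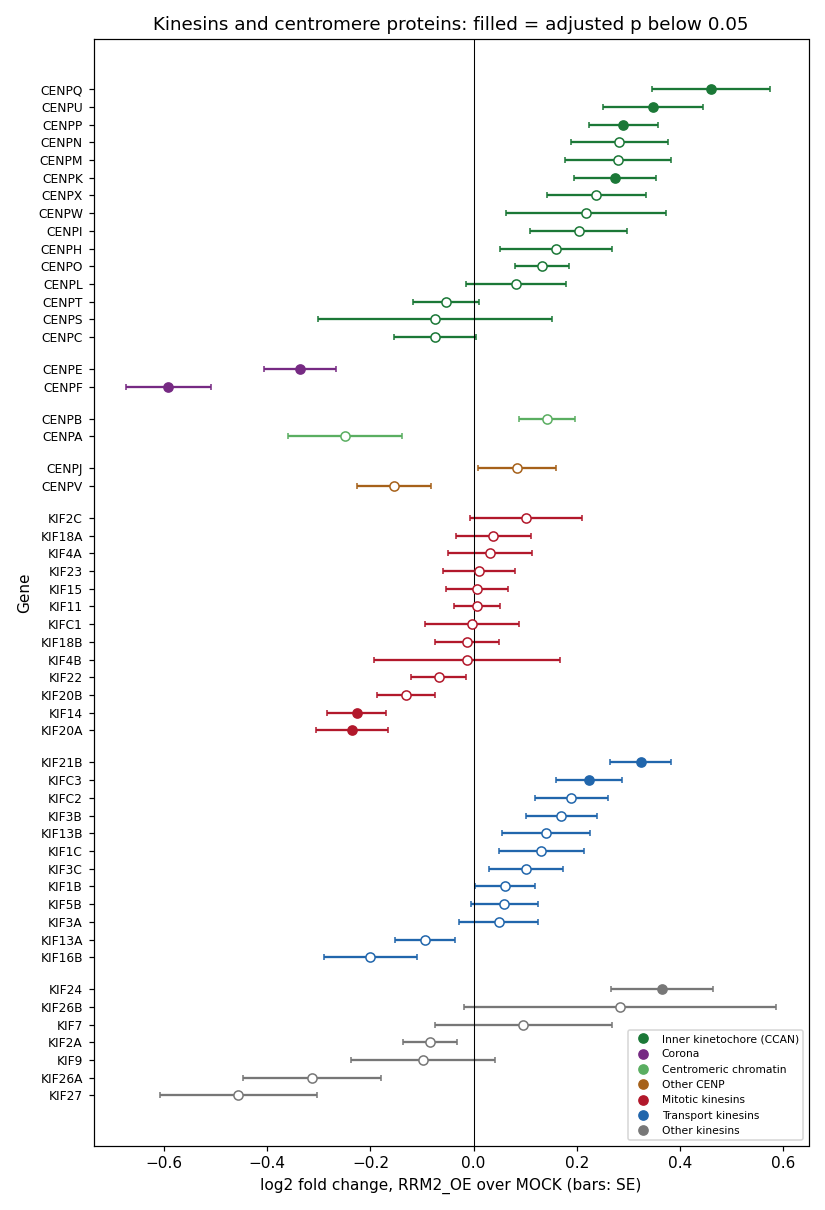
Log2 fold change of RRM2_OE over MOCK for the 53 tested genes, with SE bars, grouped by role; filled points passed an adjusted p below 0.05 (edgeR). CENPF and CENPE lie farthest left among the filled points, at -0.59 and -0.34, and 12 of the 15 CCAN genes lie right of 0.

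Both corona genes fell. CENPF, a very large protein that joins the kinetochore in G2 and mitosis, was at 114, 136, 109 and 131 CPM in RRM2_OE replicates 1 to 4, against 169, 201, 170 and 197 CPM in MOCK replicates 1 to 4. The highest RRM2_OE library lay below the lowest MOCK library. CENPF fell to 0.664 times the MOCK level (log2 fold change -0.59, SE 0.08, adjusted p = 6.96e-04, edgeR), and it did so by 0.61 in replicates 1 and 3 and by 0.58 in replicates 2 and 4 taken alone. CENPE, a plus-end motor that moves chromosomes to the spindle equator, had 50.2, 50.1, 48.6 and 55.6 CPM in RRM2_OE and 58.5, 68, 61 and 70.9 CPM in MOCK. These groups did not overlap either, though only a few CPM separated the nearest pair. The log2 fold change of CENPE was -0.34 (SE 0.07, adjusted p = 0.00786, edgeR). Neither call was lost when any single library was left out, with adjusted p up to 0.00289 for CENPF and 0.0275 for CENPE (edgeR). The deposited hg19 coordinates place CENPF (ENSG00000117724) on chromosome 1 at 214776538 to 214837931, plus strand, and CENPE (ENSG00000138778) on chromosome 4 at 104026963 to 104119566, minus strand.

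Among mitotic kinesins, KIF20A and KIF14 fell. Of 13 tested, 0 rose, 2 fell and 11 did not pass, with a median log2 fold change of -0.00 and a range from -0.24 to 0.10. KIF20A, which brings the chromosomal passenger complex to the midzone of the dividing spindle, had 35.4, 36.6, 31.3 and 31.9 CPM in RRM2_OE and 42.4, 39.9, 36.9 and 39.9 CPM in MOCK. The closest libraries of the groups, MOCK replicate 3 and RRM2_OE replicate 2, nearly met. Its log2 fold change was -0.24 (SE 0.07, adjusted p = 0.0436, edgeR), and it missed the threshold when 1 of 6 libraries was dropped (any but RRM2_OE replicate 2 and MOCK replicate 3, adjusted p up to 0.114), with library totals only, and by limma on either RPKM scale. KIF14, a motor of cytokinesis, had 44.5, 41.6, 40.0 and 42.0 CPM in RRM2_OE and 49.0, 49.1, 46.9 and 51.7 CPM in MOCK. Every MOCK library was above every RRM2_OE library. KIF14 gave -0.23 (SE 0.06, adjusted p = 0.0199, edgeR) and lost its call without RRM2_OE replicate 3 or MOCK replicate 4 (adjusted p up to 0.0595), in replicates 1 and 3 alone, and by limma on either RPKM scale. KIF20A overlaps CDC23 and BRD8 on the other strand, and the strand setting of the authors' counting is not given in the sources used here. In hg19 the table places KIF20A (ENSG00000112984) on chromosome 5 at 137514408 to 137523404, plus strand, and KIF14 (ENSG00000118193) on chromosome 1 at 200520628 to 200589862, minus strand.

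KIF11, the motor that pushes spindle poles apart, averaged 88.0 ± 1.81 CPM in RRM2_OE and 87.6 ± 3.18 CPM in MOCK (SD, n = 4 each), a log2 difference of 0.01 with SE 0.05. KIFC1, a minus-end motor that bundles spindle microtubules, averaged 56.3 ± 5.62 CPM in RRM2_OE and 56.4 ± 6.76 CPM in MOCK. The groups of both genes overlapped. Kinesins with roles from spindle assembly to cytokinesis, KIF2C (0.10), KIF18A (0.04), KIF4A (0.03), KIF23 (0.01) and KIF15 (0.01), gave small log2 fold changes that did not pass. KIF22 (-0.07) and KIF18B (-0.01), slightly below 0, did not pass either. KIF4B, at 4.19 CPM in RRM2_OE and 4.23 CPM in MOCK, is a copy of KIF4A whose transcript aligns to it at 95.3% identity, so reads may have been split between them. KIF20B (-0.13, adjusted p = 0.154, edgeR) did not pass, and passed with the replicate block (adjusted p = 0.0137).

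**Figure D3:**
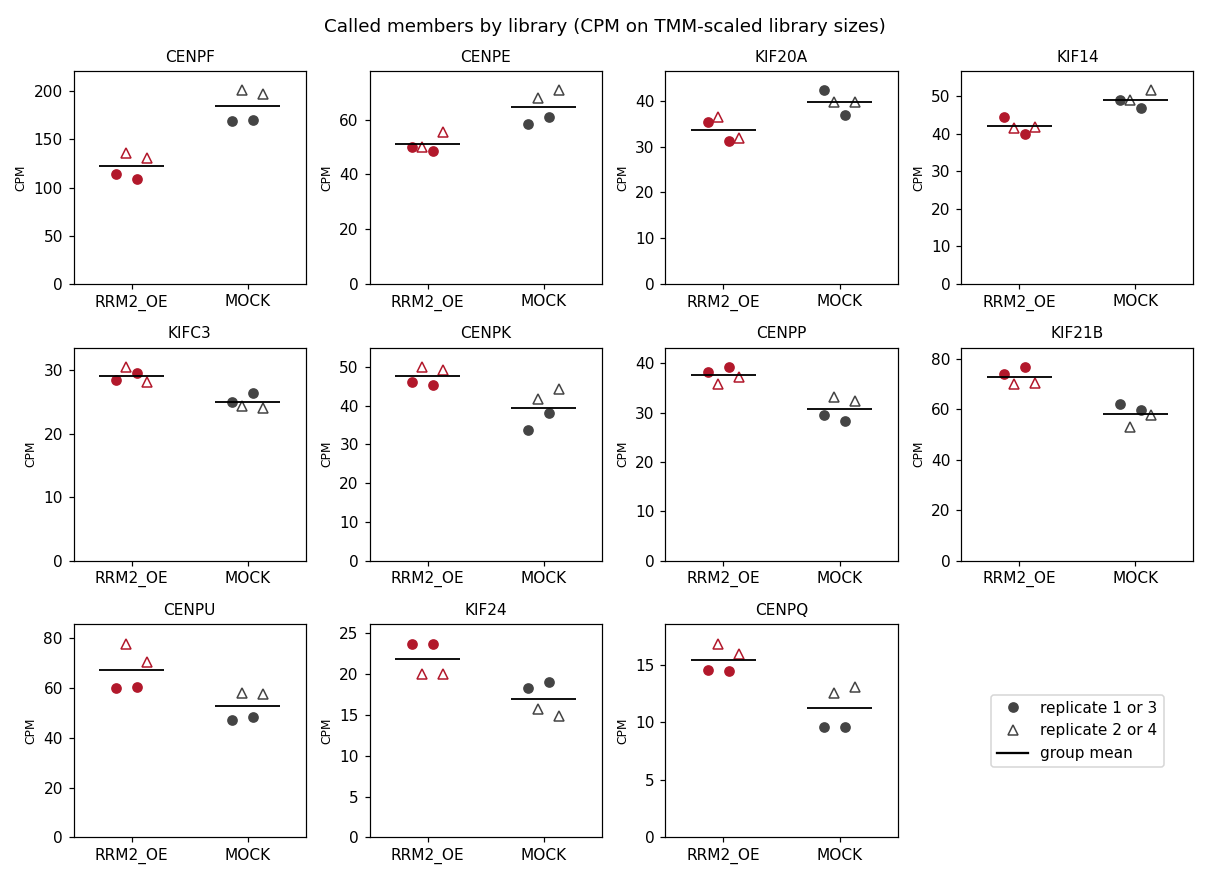
CPM in each library for the 11 genes called between RRM2_OE (left in each panel) and MOCK (right), from the most lowered to the most raised; circles are replicates 1 and 3, triangles replicates 2 and 4, lines group means, and axes start at 0. In none of the 11 panels do the groups overlap, which follows largely from choosing genes called in these same libraries. CENPF shows the widest gap, 109 to 136 CPM in RRM2_OE against 169 to 201 CPM in MOCK.

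CENPQ, CENPU, CENPP and CENPK of the inner kinetochore network rose. Of 15 CCAN genes tested, 4 rose, 0 fell and 11 did not pass, and 12 had a log2 fold change above 0, with a median of 0.22 (0.29 in replicates 1 and 3, 0.19 in replicates 2 and 4). Over all genes tested, 7546 of 15286 were above 0. The summed CCAN level was 432 to 484 CPM in RRM2_OE and 367 to 430 CPM in MOCK.

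Of the 4 that rose, 3 (CENPP, CENPQ and CENPU) belong with CENPO to the CENP-O subcomplex, a peripheral part of the network on which PLK1 docks through CENPU. CENPQ had 14.5, 16.8, 14.5 and 15.9 CPM in RRM2_OE and 9.60, 12.6, 9.59 and 13.1 CPM in MOCK. In both groups replicates 2 and 4 were the higher ones, and the groups did not overlap. CENPQ rose 1.38-fold (log2 fold change 0.46, SE 0.11, adjusted p = 0.0199, edgeR). CENPU had 60.0, 77.7, 60.2 and 70.6 CPM in RRM2_OE and 47.3, 57.8, 48.4 and 57.5 CPM in MOCK. The same replicates were high, and the lowest RRM2_OE library lay only just above the highest MOCK library. Its log2 fold change was 0.35 (SE 0.10, adjusted p = 0.0364, edgeR), and within replicates 1 and 3 or 2 and 4 it was 0.33 or 0.36. CENPQ and CENPU each lost their call without RRM2_OE replicate 2, RRM2_OE replicate 4, MOCK replicate 1 or MOCK replicate 3 (adjusted p up to 0.0619 and 0.0958, edgeR), and CENPU also by limma on either RPKM scale. The hg19 positions are CENPQ (ENSG00000031691) on chromosome 6 at 49431091 to 49460820, plus strand, and CENPU (ENSG00000151725) on chromosome 4 at 185615772 to 185655287, minus strand.

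CENPP had 38.3, 35.9, 39.3 and 37.3 CPM in RRM2_OE and 29.6, 33.1, 28.2 and 32.4 CPM in MOCK, which did not overlap. It gave a log2 fold change of 0.29 (SE 0.07, adjusted p = 0.0137, edgeR), 0.42 in replicates 1 and 3 and 0.16 in replicates 2 and 4, where it did not pass alone (adjusted p = 0.177, edgeR). CENPP overlaps 6 measured genes on the other strand, among them NOL8 and IPPK, and CENPU overlaps PRIMPOL there, so strand handling bears on both. ITGB3BP, the gene of the CENP-R subunit, gave 0.08 and did not pass (adjusted p = 0.533, edgeR). CENPO, the remaining subunit, averaged 76.4 ± 2.48 CPM in RRM2_OE and 69.7 ± 3.76 CPM in MOCK (SD, n = 4 each). Its log2 fold change of 0.13 did not pass (adjusted p = 0.122, edgeR) and passed with the replicate block (adjusted p = 0.0157). CENPP lies, in hg19, on chromosome 9 at 95087766 to 95382815 (ENSG00000188312, plus strand).

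CENPK belongs to the CENP-H/I/K/M subcomplex at the core of the network. It had 46.1, 50, 45.4 and 49.2 CPM in RRM2_OE, against 33.6, 41.8, 38.2 and 44.2 CPM in MOCK, where the libraries were more scattered. Although the groups did not overlap, the log2 fold change of 0.27 (SE 0.08, adjusted p = 0.0401, edgeR) lost its call on leaving out any library other than MOCK replicate 4 (adjusted p up to 0.101), with library totals only, and by limma on either RPKM scale. Its partners CENPM (0.28), CENPI (0.20) and CENPH (0.16) did not pass, with adjusted p of 0.098, 0.192 and 0.391 (edgeR). CENPC, the subunit that binds CENPA nucleosomes directly, gave -0.08, and the histone-fold subunits CENPT, CENPW, CENPS and CENPX gave -0.05, 0.22, -0.07 and 0.24. None of these 5 passed. With the replicate block 8 CCAN genes rose, CENPN (0.28), CENPM, CENPX and CENPO joining the 4 above, and 0 fell. The block raised calls over all genes as well, from 7.41% to 15.1% higher and from 5.42% to 14.0% lower. The table gives CENPK (ENSG00000123219) on chromosome 5 at 64813593 to 64858998, minus strand (hg19).

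CENPA and CENPB did not pass. CENPA had 8.35, 9.67, 8.41 and 8.46 CPM in RRM2_OE and 9.16, 9.82, 10.3 and 12.2 CPM in MOCK, which overlapped (-0.25 on the log2 scale, SE 0.11, adjusted p = 0.17 by edgeR). CENPA also overlaps SLC35F6 on its own strand, and reads in such an overlap may be lost or shared. CENPB had 68.5, 66.9, 64.1 and 61.6 CPM in RRM2_OE and 61.3, 55.4, 60.6 and 59.2 CPM in MOCK, a log2 fold change of 0.14 that passed only with a term for replicates (adjusted p = 0.11, and 0.0165 with the block, edgeR). CENPJ, a centriole protein despite its name, averaged 80.2 ± 4.73 CPM in RRM2_OE and 75.7 ± 8.63 CPM in MOCK, and CENPV averaged 26.7 ± 2.07 CPM in RRM2_OE and 29.7 ± 1.44 CPM in MOCK (SD, n = 4 each). Neither passed.

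Among the transport kinesins, 2 of 12 tested rose, 0 fell and 10 did not pass; the median was 0.12 on the log2 scale. KIF21B, a kinesin-4 motor that restrains microtubule growth, had 74.0, 69.8, 76.7 and 70.4 CPM in RRM2_OE and 61.9, 52.8, 59.8 and 57.8 CPM in MOCK. The groups were well apart. It rose 1.25-fold (log2 fold change 0.32, SE 0.06, adjusted p = 0.00345, edgeR), kept its call in each of the 19 alternatives run, and gave 0.31 in replicates 1 and 3 and 0.34 in replicates 2 and 4. KIFC3, a minus-end motor, had 28.4, 30.5, 29.6 and 28.1 CPM in RRM2_OE and 24.9, 24.3, 26.4 and 24.0 CPM in MOCK. These also did not overlap, but the log2 fold change of 0.22 (SE 0.06, adjusted p = 0.0361, edgeR) was not called by DESeq2, with no low count filter, by limma on either RPKM scale, or in replicates 1 and 3 alone. It was also lost on leaving out any library other than MOCK replicate 3 (adjusted p up to 0.0942). KIF5B had 193, 223, 193 and 229 CPM in RRM2_OE and 190, 209, 194 and 211 CPM in MOCK, and its log2 fold change of 0.06 did not pass. KIFC2, another minus-end motor, had 35.9, 32.8, 38.9 and 32.9 CPM in RRM2_OE and 31.2, 30.9, 32.3 and 28.9 CPM in MOCK (log2 fold change 0.19, adjusted p = 0.103, and 0.0123 with the block, edgeR). KIF16B, an endosome motor, gave -0.20 and was called lower with the block but not without it (adjusted p = 0.177, and 0.0346 with the block, edgeR), while KIF3B of kinesin-2 gave 0.17 (adjusted p = 0.135, and 0.0247 with the block). In hg19 the 2 called genes are KIF21B (ENSG00000116852) on chromosome 1 at 200938520 to 200992828, minus strand, and KIFC3 (ENSG00000140859) on chromosome 16 at 57792129 to 57896957, minus strand.

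Of 7 tested kinesins in neither class, KIF24 alone was called. KIF24 acts at centrioles, where it holds back the formation of cilia. It had 23.7, 19.9, 23.7 and 20 CPM in RRM2_OE and 18.2, 15.7, 19.0 and 14.9 CPM in MOCK. Here replicates 1 and 3 were the higher ones in both groups, the reverse of CENPQ and CENPU. The log2 fold change was 0.37 (SE 0.10, adjusted p = 0.0293, edgeR) and was lost without RRM2_OE replicate 1, RRM2_OE replicate 3, MOCK replicate 2 or MOCK replicate 4 (adjusted p up to 0.0837). KIF24 overlaps UBAP1 on the other strand; hg19 has KIF24 (ENSG00000186638) on chromosome 9 at 34252379 to 34329198, minus strand. KIF27, at 5.12 ± 0.656 CPM in RRM2_OE and 7.03 ± 1.27 CPM in MOCK (SD, n = 4 each), gave -0.46 with overlapping groups and passed with the block but not without it (adjusted p = 0.0678, and 0.00613 with the block, edgeR). KIF2A averaged 119 ± 6.65 CPM in RRM2_OE and 126 ± 5.91 CPM in MOCK and did not pass.

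Many of these genes also differed between odd-numbered and even-numbered replicates. In a fit with terms for group and for odd or even number, 2 of 53 were higher in the odd replicates (3.77%, against 15.4% of all genes) and 18 lower (34.0%, against 15.0%), by edgeR at an adjusted p below 0.05. Of the 18, 6 are CCAN genes, 5 mitotic kinesins and 2 the corona genes. KIF2C, a kinesin-13 that corrects wrong attachments at centromeres, averaged 50.2 CPM in the odd and 63.0 CPM in the even replicates. The highest odd replicate was at 53.2 CPM and the lowest even one at 60.2 CPM, so the sets did not overlap, and the log2 difference was -0.33 (SE 0.05, adjusted p = 5.66e-08, edgeR). KIFC1 behaved alike, at 51.3 CPM in odd and 61.5 CPM in even replicates (log2 difference -0.26), as did KIF5B, at 192 and 218 CPM (-0.18). The 2 higher in odd replicates were KIF24 (0.26) and KIF21B (0.12). DESeq2 called fewer, 1 higher and 7 lower in odd replicates. What the numbers stand for is not given in the labels.

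The RRM2_OE difference itself was not found to depend on odd or even number. In a fit with the interaction of group and number, 0 of 53 genes passed (0.0% of all 15286 genes; edgeR), 1 of 53 had an unadjusted p below 0.05, and DESeq2 also called 0. CENPF shows how the 2 axes combine: it was lower in RRM2_OE by 0.59 and lower in odd replicates by 0.25 on the log2 scale (odd minus even -0.25). CENPU was 0.35 higher in RRM2_OE and differed by -0.29 between odd and even replicates.

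**Figure D4:**
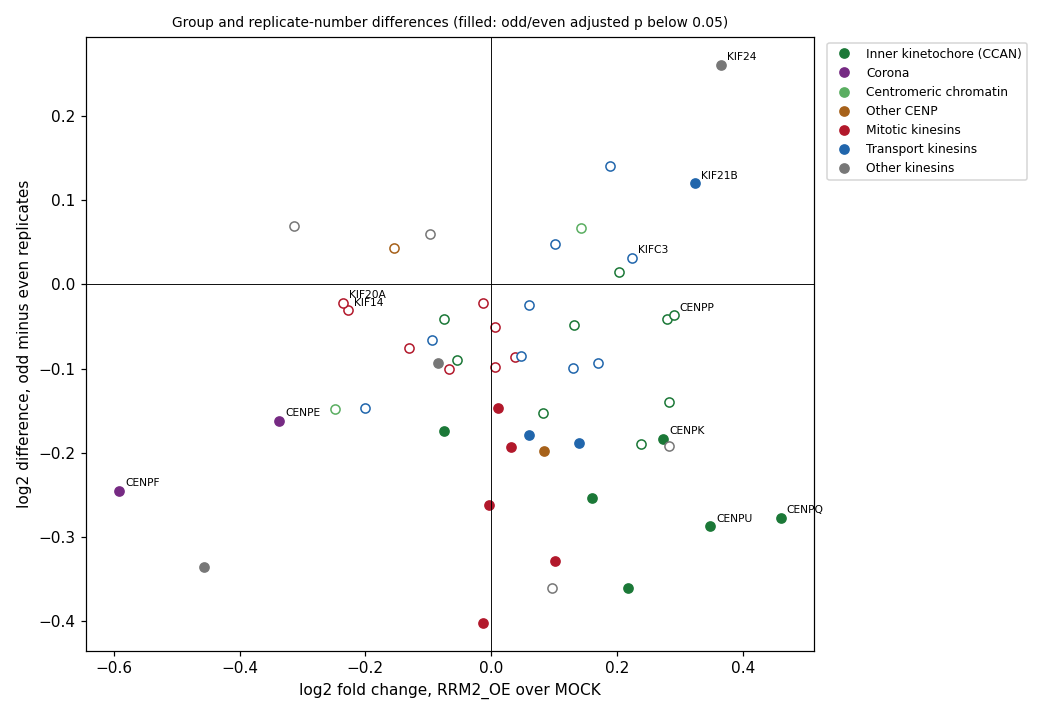
For each of the 53 tested genes, the log2 fold change of RRM2_OE over MOCK (x axis) against the log2 difference of odd minus even replicates (y axis), coloured by role and filled where the odd/even difference passed an adjusted p below 0.05. Most filled points, 18 of 20, lie below 0, with KIF24 (0.26) and KIF21B (0.12) above.

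Genes that work beside these proteins were read from 7 lists. Of 91 tested genes in all, 12 rose and 2 fell, and the median on the log2 scale was 0.06. Of all 15286 genes tested, 7.41% rose and 5.42% fell, shares to be set beside each list count here and below. Of 13 outer kinetochore genes 4 rose and 0 fell, with a median of 0.15. SKA1, which couples kinetochores to shrinking microtubules, averaged 25.4 ± 1.29 CPM in RRM2_OE and 18.0 ± 1.34 CPM in MOCK (SD, n = 4 each), 0.50 apart on the log2 scale (edgeR, adjusted p = 9.60e-04). SPC25 of the NDC80 complex gave 0.31 (adjusted p = 0.0211, edgeR) and lost its call without RRM2_OE replicate 1, 2 or 3 or MOCK replicate 1 or 2. NDC80 and ZWINT also rose (0.31 and 0.40, adjusted p = 0.0336 and 0.0437, edgeR). For ZWINT the lowest RRM2_OE library, at 79.4 CPM, lay just above the highest MOCK library, at 77.3 CPM. ZWINT also differed by -0.34 on the log2 scale between odd and even replicates. Over the 7 lists, dropping 1 library at a time left 5 to 10 genes called higher.

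HJURP, the chaperone that loads CENPA, had a log2 fold change of 0.16 and did not pass (adjusted p = 0.0823, and 0.0143 with the block, edgeR). Among 15 midzone and spindle genes 2 rose and 0 fell, AURKB, the kinase of the passenger complex (0.30), and NUSAP1, a microtubule bundler (0.17), whose call was lost without any library other than MOCK replicate 2. In the list of G2 and mitotic gene regulators 2 of 10 rose and 0 fell. MYBL2, a transcription factor that joins MuvB, averaged 158 ± 3.66 CPM in RRM2_OE and 115 ± 2.24 CPM in MOCK (log2 fold change 0.45, adjusted p = 2.58e-05, edgeR), and LIN54 gave 0.23, not called by DESeq2 or without RRM2_OE replicate 2, 3 or 4 or MOCK replicate 1, 2 or 3. FOXM1, a second such factor, gave 0.19 and did not pass (adjusted p = 0.0621, edgeR), though it passed with the replicate block (adjusted p = 2.60e-04).

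Dynein, dynactin and tubulin genes make the other microtubule motor and the track itself. Of 22 dynein and dynactin genes 3 rose and 0 fell, the dynein light chains DYNLT1 (0.44, adjusted p = 0.00181, edgeR) and DYNLT3 (0.27) and the dynactin subunit ACTR10 (0.19, adjusted p = 0.0458, edgeR), which DESeq2 did not call. DYNLT3 lost its call without RRM2_OE replicate 2 or 4 or MOCK replicate 1, 2 or 3. The dynein heavy chain DYNC1H1, at 308 CPM in RRM2_OE and 311 CPM in MOCK, gave -0.01. Of 9 tubulin genes TUBA4A alone rose (0.43, adjusted p = 0.00811, edgeR), while TUBB, at 1341 CPM in RRM2_OE and 1329 CPM in MOCK, gave 0.01; tubulin genes share sequence, and their counts are uncertain for that reason. Of 15 kinesin adaptor genes 0 rose and 1 fell, MAPK8IP3 (-0.16, adjusted p = 0.0273, edgeR), a scaffold between kinesin-1 and its cargo, whose call was lost without RRM2_OE replicate 2, 3 or 4 or MOCK replicate 3 or 4.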

How the data were processed

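Per the labels' protocols, libraries were made from 200 ng of total RNA with a stranded poly(A) kit. TopHat2, HTSeq 0.11.2, bcl2fastq 2.18.0.12 and the build hg19 (GRCh37) are listed in the submitters' processing notes. Annotation and strand setting are unknown here. The authors deposited whole-number read counts per Ensembl gene and RPKM values, and the RPKM values were recomputed from the counts, column totals and exon lengths to within 4.7e-06. Symbols came from Ensembl IDs, 32562 by current names and 299 by GENCODE 29, and coordinates of genes are those of the deposited tables. Measured genes overlap 5 of the 62 on their own strand (CENPA, CENPN, CENPS, KIF15 and KIF2A) and 27 on the opposite one.

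The main test used R 4.3.3 and edgeR 4.0.16, with default filterByExpr (15286 genes kept), TMM factors and robust quasi-likelihood F tests of RRM2_OE against MOCK with no covariate. P-values were adjusted by Benjamini-Hochberg across those genes (threshold 0.05). Each SE is the size of the fold change (log2) divided by √F. The test was checked on simulated counts drawn independently for each library. These had no odd/even split, so the check does not cover that feature of the data. Alternatives were DESeq2 1.42.0, other size factors and filters, a replicate block, an odd/even term, limma 3.58.1 on log2(RPKM + 1) and log2(RPKM + 0.1), odd or even replicates alone, and leaving out each library. The members and lists were chosen with earlier results of these data known. Named are RRM2, every called member, the 2 members of highest mean RPKM in each class, and the 2 list genes of smallest adjusted p; others named were chosen after their values were seen. The result of 1 list gene is not reported here.

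Replicate numbers come from the labels. Deviations from the group means correlated at 0.25, 0.23, 0.22 and 0.23 between same-numbered libraries, above the threshold of 0.1 set for this check. Libraries of like parity and unlike number correlated at 0.23 to 0.29 as well. The check therefore cannot tell pairing by number from the odd/even split, and pairing by number was not shown. Blocked p-values or calls stand beside the named results whose call they change. The block, the odd/even term and fits of odd or even replicates alone take the odd/even difference out of the error. Their p-values may therefore rest on technical spread, and they cannot stand for separate cultures. Promoter sequences are from RefSeq (GRCh38.p14) and were matched by symbol.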

Additional observations from a re-analysis of the deposited data

Results flagged for a closer look

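A single library stood far from the other 3 of its group, by a gap-to-range test at the 95% level, in 6 of 106 sets of 4 libraries examined; chance alone flags about 1 in 20. RRM2_OE replicate 2 was high for CENPC (45.6 CPM, lowest of its group 38.7), CENPH (24.6 CPM, lowest 20.4) and CENPA (9.67 CPM, lowest 8.35). RRM2_OE replicate 1 was low for KIF13A (39.0 CPM, highest of its group 43.5). MOCK replicate 1 was low for KIF16B (21.8 CPM, highest 27.3), and MOCK replicate 3 was high for CENPS (3.31 CPM, lowest 2.12). None of these 6 genes was called between the groups by edgeR without the replicate block.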

How the results depend on the processing

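With replicate number as a block, 14 members were higher and 7 lower, and 29 and 9 list genes. Of all genes tested, 15.1% were higher and 14.0% lower with that block. An odd/even term gave 14, 7, 29 and 10 members and list genes, in the same order. The block changed the call of 10 members, each named above with its blocked p or as a CCAN gene, and of no other. On log2(RPKM + 1) and on log2(RPKM + 0.1) alike, 4 members were higher and 2 lower and 0 list genes lower; with library totals only, 0 list genes were lower, and replicates 2 and 4 alone gave 7. Leaving out 1 library at a time left 3 to 6 members higher and 2 to 4 lower, 5 to 10 list genes higher and 0 to 2 lower, 1 to 2 members higher and 12 to 17 lower in odd replicates, and 0 with an interaction. DESeq2 called 1 higher and 7 lower in odd replicates. CENPE, CENPF and KIF21B kept their calls in all 19 alternatives. Values near 0 changed sign: the KIF11 log2 fold change was -0.00128 with no low count filter and -0.017 to 0.025 with 1 library left out, and the KIFC1 log2 fold change was 0.00944 with library totals only, 0.011 and 0.012 on the RPKM scales, 0.035 in replicates 1 and 3, and -0.065 to 0.052 with 1 library left out. The causes were not tested. The 9 untested members had too few counts to compare.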
